A study of Mus with 6 samples.

Results

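Oligodendrocyte precursors are the dividing glial cells of the adult brain from which myelinating oligodendrocytes form. They depend on platelet-derived growth factor acting through the receptor Pdgfra, pass through a committed stage marked by Gpr17, and then switch off their precursor genes as they switch on myelin genes. The factors Olig1, Olig2 and Sox10 are expressed through the whole lineage, and precursors in the forebrain, the amygdala included, receive synapses from neurons. The genes described here are 10 genes of this lineage, Pdgfra, C1ql1, Cspg4, Lhfpl3, Matn4, Neu4, Gpr17, Olig1, Olig2 and Sox10, each found by its gene name among the 54532 genes of the deposited table. All 10 had reads in all 6 libraries.

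RNA was sequenced from the basolateral amygdala of Cntnap4 knockout mice (KO, 3 libraries) and wild-type mice (WT, 3 libraries), all labelled female. Cntnap4 encodes a contactin-associated membrane protein of interneurons. The labels describe neither the knockout allele nor the strain or age, and do not say whether each library came from a separate animal, so the p-values measure the spread between these libraries, which may be technical. The series title also concerns a Lactobacillus species; all 6 libraries here carry a genotype and no bacterial treatment in their labels.

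Levels are FPKM (fragments per kilobase of gene, scaled to library size) as deposited. They can be set side by side between genes only as far as 1 length per gene allows. A log2 fold change is KO over WT on log2(FPKM + 1) from limma, a linear model fitted to all 13087 genes with a mean of at least 1 FPKM. SE is its moderated standard error and an adjusted p is Benjamini-Hochberg over those genes, with a threshold of 0.05. All 10 genes passed this filter. Mean values are given with the SD over 3 libraries.

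The targeted gene Cntnap4 was at 1.08, 1.19 and 1.28 FPKM in KO1, KO2 and KO3, against 3.53, 3.90 and 2.15 FPKM in WT1, WT2 and WT3, with a limma adjusted p of 0.302. Read numbers, recovered as FPKM times gene length, summed to 15933029 to 17789798 per library. Over the 13087 genes 1 was called by the adjusted p (0.00764%), and 0 with the replicate number as a block. Markers of the labelled region were present in every library but unequal between libraries and, for some, between groups. Neurod6, a factor of cortical and amygdalar excitatory neurons, was at 27.1, 34.1 and 28.8 FPKM in KO and 7.06, 18.3 and 17.0 FPKM in WT, and Lmo3 was at 16.4, 21.0 and 24.9 FPKM in KO and 61.7, 27.9 and 33.5 FPKM in WT. Over 6 such markers the median log2 fold change was 0.21, and it ran from -0.02 without WT3 to 0.36 without WT2. That median covers opposite changes, from -1.28 to 1.13. Every KO library lay above every WT library for 2 of the 6 (11.9% of all genes tested). Every KO library lay below for 1 (10.1% of all genes tested). Whether the dissected tissue differed between the groups was not tested. WT1 held the low value of Neurod6 and the high value of Lmo3, and it stands apart in several results below.

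All 10 lineage genes averaged lower in KO than in WT, as 48.7% of all genes tested did, and none passed the threshold over all genes. The KO over WT ratio of mean FPKM ran between 0.441 for C1ql1 and 0.839 for Sox10. The median log2 fold change of the 10 genes was -0.38, beside 0.01 over all genes tested. In 6 genes (Pdgfra, C1ql1, Cspg4, Lhfpl3, Neu4 and Olig1) every KO library lay below every WT library, a separation found in 10.1% of all genes tested. The KO and WT ranges overlapped in Matn4, Gpr17, Olig2 and Sox10. By limma, 0 of 10 genes passed the adjusted threshold and 7 of 10 had an unadjusted p under 0.05 with a lower KO level, against 7.25% of all genes (7.05% had such a p with a higher KO level); limma-voom on the recovered reads also gave 0 and 7. That count of 7 was 1 without KO2, 4 without WT1 and 4 without WT3. The 10 genes were chosen with earlier results of these data known. The shares of all genes are therefore given as background and are no test of the list. The balance of directions over all genes depends on scaling: with every library rescaled to the same summed FPKM, 1224 genes had such a p with a higher KO level and 580 with a lower one (4.43%), against 923 and 949 as deposited, and the count for the 10 genes was 5. In tissue RNA, fewer cells of a type and less RNA per cell cannot be told apart.

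**Figure D1:**
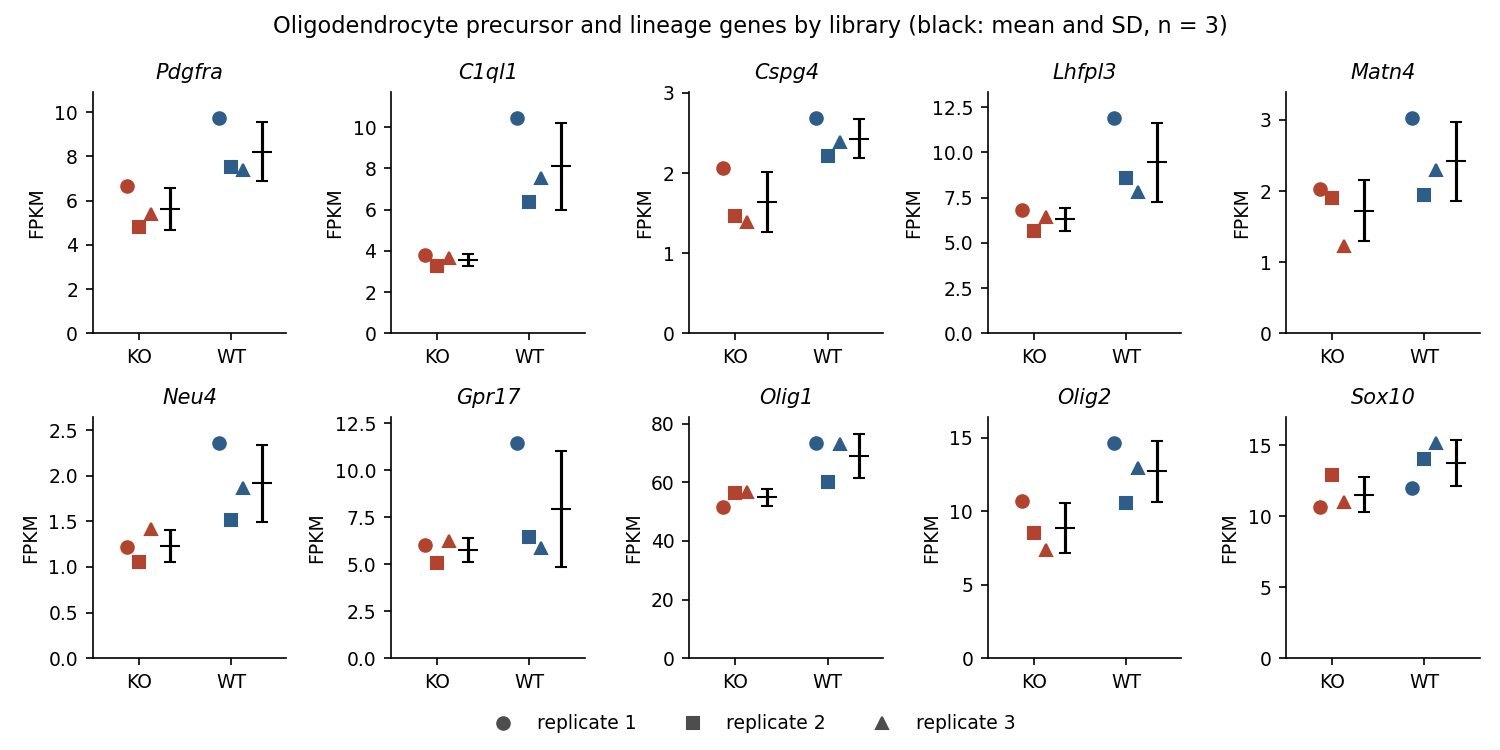
FPKM of the 10 lineage genes in each library, KO left and WT right in each panel, with the marker shape giving the replicate number and the black bar the mean and SD of 3 libraries. WT1 is the highest library for 9 of the 10 genes, and the KO points lie below all WT points in 6 panels.

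Pdgfra, the receptor through which platelet-derived growth factor keeps precursors alive and dividing, was at 6.66, 4.80 and 5.38 FPKM in KO, against 9.74, 7.50 and 7.38 FPKM in WT. The groups did not overlap, with WT1 well above the other WT libraries and KO1 the highest of the KO libraries. The means were 5.61 ± 0.949 FPKM in KO and 8.21 ± 1.33 FPKM in WT, a ratio of 0.684 and a log2 fold change of -0.48 (SE 0.15, limma adjusted p = 0.303). Without WT1 the ratio was 0.754. The gene (ENSMUSG00000029231, GRCm38) lies on chromosome 5 from 75152292 to 75198215, and 835 to 1827 recovered reads per library stood behind it.

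Cspg4, the NG2 proteoglycan of the precursor surface, which pericytes carry too, was at 2.07, 1.46 and 1.38 FPKM in KO, against 2.69, 2.21 and 2.39 FPKM in WT. The highest KO library, KO1, came close to the lowest WT library, WT2, without reaching it. Its means were 1.64 ± 0.373 FPKM in KO and 2.43 ± 0.243 FPKM in WT, with a log2 fold change of -0.38 (SE 0.14, limma adjusted p = 0.320).

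Gpr17, a G protein-coupled receptor of committed precursors that in mice holds back their maturation, was at 6.0, 5.05 and 6.23 FPKM in KO, against 11.5, 6.44 and 5.87 FPKM in WT. The groups overlapped, and WT1 alone stood far above the other 5 libraries. The means were 5.76 ± 0.624 FPKM in KO and 7.92 ± 3.08 FPKM in WT, with a log2 fold change of -0.35 (SE 0.23, limma adjusted p = 0.484). Without WT1 the log2 fold change was -0.09 and the ratio 0.936, against 0.727 with all libraries. Gpr17 lies on chromosome 18 from 31942997 to 31949636 inside the span of Lims2 on the opposite strand, and since the sources used here do not say whether counting used strand, reads of the 2 genes may not be fully separated. Lims2 was at 3.73 FPKM in KO and 4.11 FPKM in WT on average.

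Among the secreted products, C1ql1 had the lowest ratio of the 10. It encodes a C1q-like protein that binds the adhesion receptor Adgrb3 and is best known as a synaptic ligand of climbing fibres in the cerebellum. Its level was 3.80, 3.25 and 3.67 FPKM in KO, against 10.5, 6.35 and 7.52 FPKM in WT. The KO libraries lay within a narrow band well under the lowest WT library, while the WT libraries were spread, with WT1 on top. The means were 3.57 ± 0.288 FPKM in KO and 8.11 ± 2.11 FPKM in WT, a ratio of 0.441, and 0.515 without WT1. On the log2 scale KO minus WT was -0.97 (SE 0.17, limma unadjusted p = 0.00063, adjusted p = 0.302), which placed the gene 16th by p among 13087. Its position is chromosome 11 from 102939264 to 102946688. Few reads stood behind the values, 92, 83 and 89 in KO and 288, 150 and 187 in WT, and counting error alone at 83 reads is 10.98%, more than the coefficient of variation of 8.07% over the KO libraries.

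The other C1q-like genes and the receptor were not separated between groups. Adgrb3 was at 6.22 ± 0.384 FPKM in KO and 5.73 ± 0.559 FPKM in WT. C1ql3, a neuronal member of the family, was at 24.8, 23.0 and 19.1 FPKM in KO, against 42.3, 28.1 and 13.0 FPKM in WT, and C1ql2 at 1.83, 2.05 and 0.212 FPKM in KO, against 9.86, 3.99 and 0.267 FPKM in WT. Both were highest in WT1 and had low values in both libraries numbered 3, a pattern that C1ql1 did not share, since its WT3 value exceeded its WT2 value.

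Matn4, a matrilin that links fibres of the extracellular matrix, was at 2.02, 1.91 and 1.23 FPKM in KO, against 3.03, 1.94 and 2.29 FPKM in WT. KO1 lay above WT2, so the groups overlapped, with a log2 fold change of -0.33 (SE 0.18, limma adjusted p = 0.415). Of the other matrilins, Matn2 was at 5.28 ± 0.868 FPKM in KO and 5.24 ± 2.11 FPKM in WT, and Matn1 and Matn3 were below the filter.

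Lhfpl3, a small membrane protein of the Lhfpl family, was at 6.84, 5.64 and 6.42 FPKM in KO, against 11.9, 8.60 and 7.83 FPKM in WT. The groups did not overlap, and the gap between the highest KO library and the lowest WT library was small beside the excess of WT1. The means were 6.30 ± 0.612 FPKM in KO and 9.45 ± 2.17 FPKM in WT, a ratio of 0.667 and 0.766 without WT1, with a log2 fold change of -0.50 (SE 0.16, limma adjusted p = 0.303). Lhfpl3 followed Pdgfra most closely of all pairs among the 10 genes. Their levels had a ratio of 1.03, 1.17 and 1.19 in KO and 1.22, 1.15 and 1.06 in WT, and their deviations from their own means differed by a root mean square of 0.08 log2 units over 6 libraries. The related neuronal gene Lhfpl4, an auxiliary protein of GABA receptors, was at 21.0 ± 3.20 FPKM in KO and 24.7 ± 2.25 FPKM in WT.

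Neu4 encodes a sialidase, an enzyme that removes sialic acid from glycoproteins and glycolipids. It had the lowest level of the 10, at 1.22, 1.06 and 1.41 FPKM in KO, against 2.36, 1.52 and 1.86 FPKM in WT. The groups did not overlap, with KO3 just under WT2. The comparison gave a log2 fold change of -0.38 (SE 0.15, limma adjusted p = 0.336) on 85 to 205 recovered reads per library. Neu1, the lysosomal sialidase found in most cells, was at 14.5 ± 0.939 FPKM in KO and 14.7 ± 1.5 FPKM in WT, and Ncam1, whose protein carries polysialic acid, at 17.9 ± 2.27 FPKM in KO and 21.1 ± 3.23 FPKM in WT.

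The lineage transcription factors held the highest levels of the 10. Olig1, a basic helix-loop-helix factor, was at 51.6, 56.2 and 56.6 FPKM in KO, against 73.5, 60.1 and 73.1 FPKM in WT. All KO libraries lay below all WT libraries, WT2 being the nearest. The means were 54.8 ± 2.77 FPKM in KO and 68.9 ± 7.63 FPKM in WT, a ratio of 0.795 and a log2 fold change of -0.32 (SE 0.11, limma adjusted p = 0.318).

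Olig2, which specifies the lineage, was at 10.7, 8.50 and 7.34 FPKM in KO, against 14.7, 10.5 and 12.9 FPKM in WT. KO1 lay just above WT2 and the other KO libraries below all WT libraries. The ratio was 0.697 and the log2 fold change -0.48 (SE 0.16, limma adjusted p = 0.309). Olig2 and Olig1 are neighbours on the same strand of chromosome 16, Olig2 from 91225457 to 91228677 and Olig1 from 91269772 to 91271933, with 41094 bases between them. The Olig1 to Olig2 ratio was 4.82, 6.61 and 7.71 in KO and 5.01, 5.71 and 5.66 in WT, so the KO libraries varied more in this ratio than the WT libraries and reached both below and above them.

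Sox10, a high mobility group factor that activates myelin genes and stays on in mature oligodendrocytes, was at 10.7, 12.9 and 11.04 FPKM in KO, against 12.003, 14.0 and 15.2 FPKM in WT. It was the gene for which WT1 was the lowest WT library, and KO2 lay above WT1. The means were 11.5 ± 1.21 FPKM in KO and 13.8 ± 1.62 FPKM in WT, with a log2 fold change of -0.23 (SE 0.12, limma adjusted p = 0.408).

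By level, Olig1 came first in both groups and did not overlap the next gene, Sox10. Sox10 and Olig2 overlapped each other in both groups. In KO the order went on through Lhfpl3, Gpr17 and Pdgfra, whose neighbouring ranges overlapped, then to C1ql1, which stood clear of Pdgfra above it and Matn4 below it, and to Matn4, Cspg4 and Neu4, which overlapped in turn. In WT, Olig2, Lhfpl3, Pdgfra, C1ql1 and Gpr17 each overlapped the next, a clear gap followed, and Cspg4, Matn4 and Neu4 overlapped in turn. C1ql1 thus lay within the middle group of levels in WT and below it in KO.

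The spread between libraries was mostly larger than counting error. At the fewest reads of each gene counting error ran from 2.34% for Olig1 to 10.98% for C1ql1. The coefficient of variation exceeded it in 9 of 10 genes among KO libraries and 10 of 10 among WT libraries. WT1 was the highest library for 9 of the 10 genes. The lowest library was KO2 for 5 genes, KO3 for 3 and KO1 for 2.

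Each gene was also set against Sox10 in the same library, since Sox10 is shared by precursors and mature cells. All 9 ratios to Sox10 averaged lower in KO than in WT, with a median log2 difference of -0.30. Sox10 itself had the mildest fall of these genes, a KO over WT ratio of 0.839. A lower average for the other 9 largely follows from that, and is not a separate result. For C1ql1 the log2 ratio was -1.49, -1.99 and -1.59 in KO, against -0.20, -1.14 and -1.02 in WT. It was the 1 ratio whose groups did not overlap. The difference was -0.90 on the log2 scale (exact two-sided permutation p = 0.1, the smallest that 3 libraries against 3 can give; 0.75 adjusted over the 9 ratios). The other 8 ratios overlapped. For Pdgfra the log2 ratio was -0.68, -1.43 and -1.04 in KO, against -0.30, -0.91 and -1.04 in WT, and for Olig1 2.28, 2.12 and 2.36 in KO, against 2.61, 2.10 and 2.27 in WT. WT1 held the highest value of all 9 ratios, which share 1 denominator. WT1 was the highest library for those 9 genes and the lowest WT library for Sox10. Without WT1 the median difference was -0.07, and 6 of 9 ratios averaged lower in KO.

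**Figure D2:**
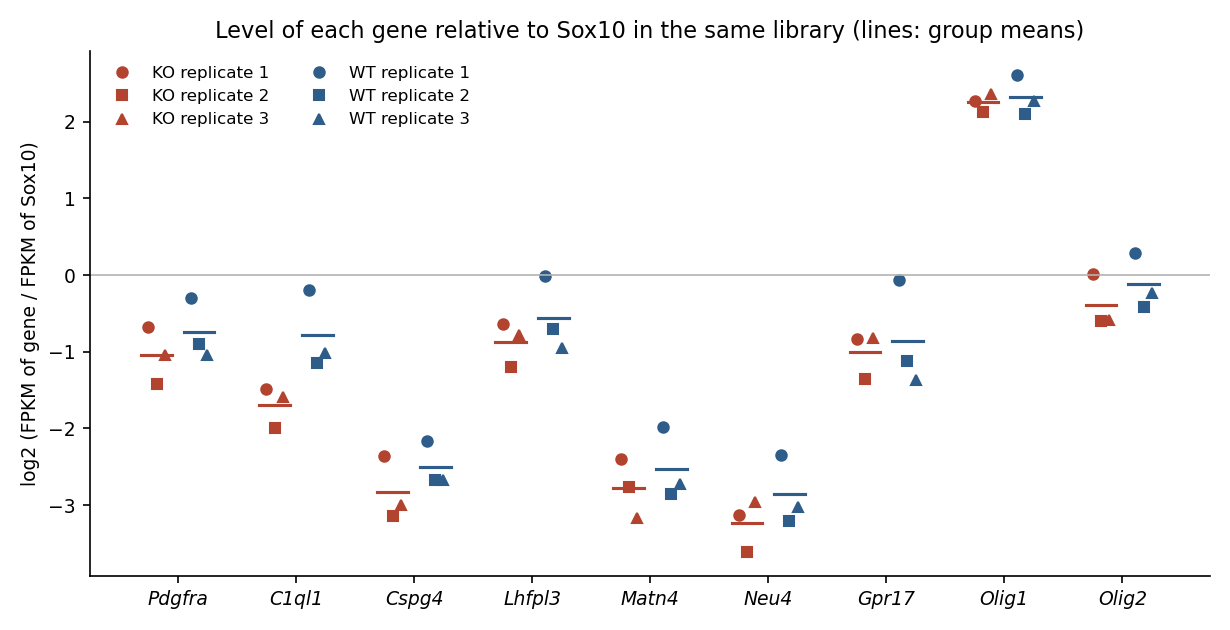
Log2 ratio of each gene's FPKM to that of Sox10 in the same library, with KO (red) left of WT (blue) for each gene, marker shapes for replicate numbers and lines for group means. WT1 has the highest ratio for all 9 genes, and C1ql1 is the gene whose KO and WT points do not overlap.

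Other genes of the precursor stage differed in both directions. Of 12 further precursor markers 11 were tested and 0 passed the adjusted threshold. Of the 11, 9 averaged lower in KO and 2 higher, and the median log2 fold change was -0.21. It was -0.14 with 8 of 11 lower both without WT1 and with sample weights, and -0.28 with a pseudocount of 0.1. Cacng4, an auxiliary subunit of AMPA receptors, was at 7.03, 6.08 and 11.3 FPKM in KO, against 16.2, 10.4 and 18.9 FPKM in WT, where KO3 overlapped WT2. Bcan, a matrix proteoglycan that astrocytes make too, was at 53.8, 51.4 and 51.7 FPKM in KO, against 69.0, 59.3 and 79.3 FPKM in WT, with no overlap. Opposite to these, Tnr, the matrix protein tenascin-R, was at 16.0, 16.0 and 14.3 FPKM in KO, against 10.6, 13.3 and 11.7 FPKM in WT, every KO library above every WT library. Xylt1, which starts the sugar chains of proteoglycans, was at 7.87 ± 0.744 FPKM in KO and 6.48 ± 0.831 FPKM in WT. None of these 4 passed the adjusted threshold, the smallest limma adjusted p being 0.303.

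The small families around the 10 genes had few tested members, none of them past the adjusted threshold. The median log2 fold change was -0.17 over 3 tested genes of the C1q-like proteins and their receptor, 0.14 without WT1 and -0.62 without WT3. It was -0.12 over 3 tested Lhfpl genes, and -0.19 without WT2. Over 3 tested sialidase and polysialic acid genes it was -0.01, and its sign turned without WT1 (0.06), without KO3 (0.04), with sample weights (0.05), with rescaling to the same sum (0.04) and with the length trend removed (0.01).

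Other chondroitin sulfate proteoglycans, grouped by their type of sugar chain and not as a gene family of Cspg4, also averaged lower. All 5 tested members of that list were below 0 in log2 fold change (median -0.26), and 0 passed the adjusted threshold. Cspg5, a membrane proteoglycan of neurons and glia, was at 26.4, 26.4 and 25.2 FPKM in KO, against 31.3, 30.7 and 32.2 FPKM in WT, a narrow spread in each group with a clear gap between them (log2 fold change -0.26, SE 0.08, limma adjusted p = 0.303). Bcan, Vcan and Ptprz1 are in both this list and that of the further precursor markers.

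The platelet-derived growth factor genes and the related receptor gene Pdgfrb were lower by little. Pdgfa, the ligand that drives precursor division, was at 11.03, 10.6 and 9.96 FPKM in KO, against 12.8, 13.7 and 11.8 FPKM in WT, with no overlap and a ratio of 0.824 (log2 fold change -0.26, SE 0.10, limma adjusted p = 0.323). Pdgfb was at 9.21 ± 1.05 FPKM in KO and 10.8 ± 0.885 FPKM in WT. The log2 fold changes of Pdgfc, Pdgfd and Pdgfrb were -0.03, -0.11 and -0.09. All 5 averaged lower and 0 passed the adjusted threshold. The number lower was 3 of 5 without WT3, and 4 of 5 without WT1, with sample weights or with every library rescaled to the same summed FPKM.

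Genes of committed precursors and of newly formed oligodendrocytes had a median log2 fold change of -0.09 over 9 tested, 6 lower and 3 higher on average, and it turned to 0.04 without WT3 and to 0.07 with sample weights. Bmp4, a growth factor of committed precursors, was at 1.03, 0.539 and 0.864 FPKM in KO, against 2.02, 0.999 and 1.13 FPKM in WT. Bcas1, which marks cells that are starting to myelinate, was at 15.2, 23.5 and 25.8 FPKM in KO, against 9.39, 15.5 and 29.4 FPKM in WT. Enpp6, an enzyme of newly forming oligodendrocytes, stood below the filter and is named after its values were seen. It was at 0.836, 1.39 and 1.06 FPKM in KO, against 0.442, 0.477 and 0.684 FPKM in WT, above every WT library in every KO library. With no filter the fold change was 0.45 on the log2 scale (SE 0.15, limma adjusted p = 0.544).

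Other lineage factors went both ways, with a median log2 fold change of -0.05 over 12 tested, 7 lower and 5 higher on average. The median was 0.03 without WT2 and 0.03 without WT3, with 5 of 12 and 5 of 11 lower, and -0.12 with 9 of 12 lower without WT1. Hes5, a Notch target that keeps glial progenitors from maturing, was at 3.44, 4.65 and 5.17 FPKM in KO, against 8.24, 5.40 and 10.8 FPKM in WT, and Id4, an inhibitor of helix-loop-helix factors, at 23.9, 17.3 and 27.2 FPKM in KO, against 29.8, 28.1 and 32.7 FPKM in WT. Neither overlapped between groups. Sox5, known for restraining Sox10 target genes, was at 3.28, 3.59 and 3.35 FPKM in KO, against 2.16, 2.46 and 2.90 FPKM in WT, higher in every KO library. Sox8 was at 14.2 ± 1.79 FPKM in KO and 17.1 ± 1.70 FPKM in WT. Myrf, the factor that turns on myelin genes, was at 5.24, 6.44 and 5.52 FPKM in KO, against 1.65, 4.70 and 5.60 FPKM in WT, where WT1 alone was low. None of these 5 passed the adjusted threshold. Nkx2-2, at 0.758 ± 0.185 FPKM in KO and 0.872 ± 0.209 FPKM in WT, was below the filter.

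Dividing cells were scarcely represented. Of 12 cell division genes 1 passed the filter, Pcna, at 18.0 ± 0.897 FPKM in KO and 16.8 ± 1.31 FPKM in WT. Mki67, expressed in cycling cells, was at 0.0951 ± 0.0518 FPKM in KO and 0.0863 ± 0.0105 FPKM in WT.

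Myelin genes mark the last stage of the lineage. Of 22 tested, 17 averaged higher in KO and 5 lower, with a median log2 fold change of 0.40, and 0 passed the adjusted threshold. Mbp, a protein that compacts myelin, was at 181, 250 and 202 FPKM in KO, against 82.0, 176 and 256 FPKM in WT. Ugt8a, which makes myelin galactolipids, was at 7.66, 10.04 and 11.1 FPKM in KO, against 4.64, 5.30 and 9.13 FPKM in WT, and had the smallest p of the list (limma adjusted p = 0.347). Groups overlapped in all 22 genes, and WT1 was the lowest library for 17 of them. The median was 0.12 with 10 of 22 lower on average without WT1, and 0.69 with 0 of 22 lower without WT3.

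**Figure D3:**
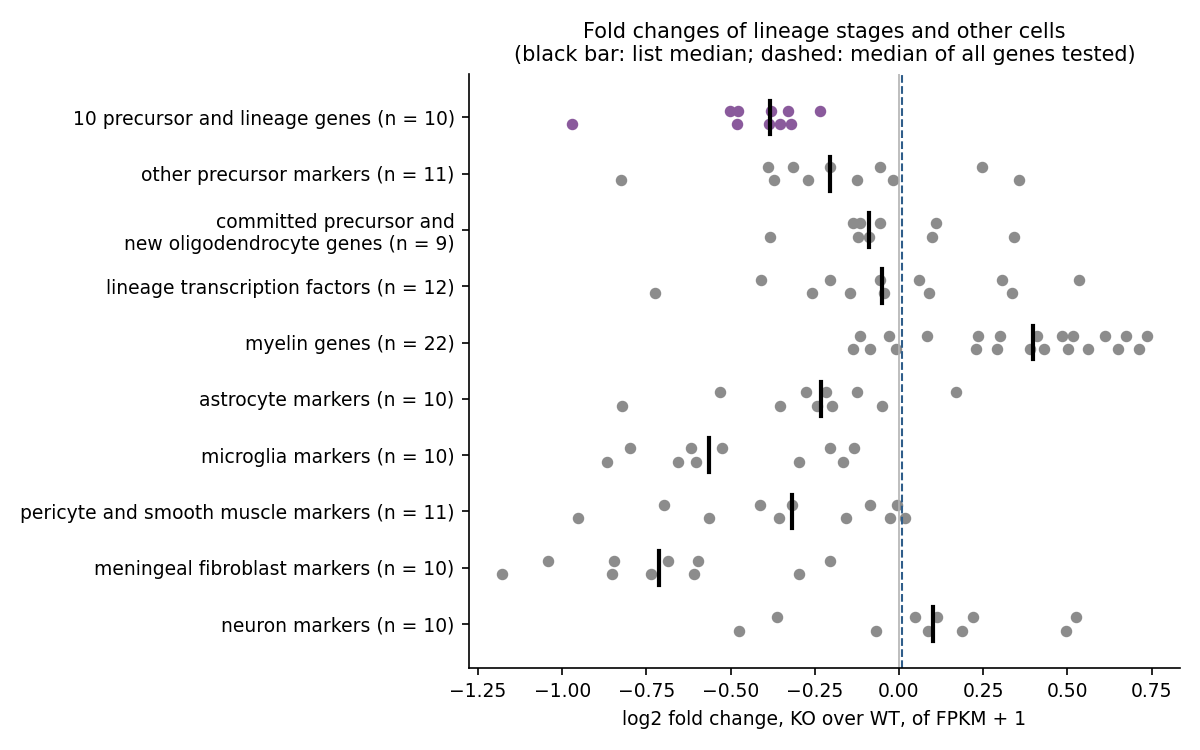
Log2 fold change (KO over WT, of FPKM + 1) of each tested gene, 1 row per gene list, with the list median as a black bar and the median of all genes tested as a dashed line. The 10 precursor and lineage genes lie between -0.97 and -0.23, and myelin genes have a median of 0.40.

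Markers of several other cell types in the dissected tissue also averaged lower in KO. Pdgfra is also expressed by meningeal fibroblasts and Cspg4 by pericytes, so these lists are set beside them. All 10 meningeal fibroblast markers averaged lower in KO (median log2 fold change -0.71; 0 passed the adjusted threshold, 5 had an unadjusted p under 0.05). Their summed level was 17.2 to 42.0 FPKM in KO and 39.8 to 89.5 FPKM in WT, and no marker was at 0 in any library. All 10 were highest in WT1, as Pdgfra was. The collagen gene Col1a1 was at 2.75, 0.47 and 0.53 FPKM in KO, against 5.67, 1.02 and 1.16 FPKM in WT. Slc6a13, a GABA transporter of the meninges, was at 2.35, 1.87 and 2.09 FPKM in KO, against 4.95, 4.30 and 2.92 FPKM in WT. Their part in the Pdgfra result was not tested. Without WT1 the median of the fibroblast list was -0.52, with 8 of 9 tested markers lower, and the log2 fold change of Pdgfra -0.36.

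Of 11 tested pericyte and smooth muscle markers 10 averaged lower in KO, with a median log2 fold change of -0.32 and 0 past the adjusted threshold. Rescaling every library to the same summed FPKM gave 8 of 11 and -0.28, and leaving out WT3 gave 6 of 11 and -0.18. Their summed level was 76.2 to 99.8 FPKM in KO and 81.6 to 152 FPKM in WT, and Tagln was at 0 in KO3. The defining pericyte receptor Pdgfrb was at 4.48, 4.81 and 4.58 FPKM in KO, against 3.65, 4.11 and 7.93 FPKM in WT, with WT3 alone high. Cspg4 was highest in WT1, as were Anpep, Acta2 and Myh11 of this list. The other tested markers of the list were highest in WT3. Smooth muscle Myh11 was at 1.41, 1.36 and 1.48 FPKM in KO, against 4.21, 1.65 and 3.35 FPKM in WT. The part of these cells in the Cspg4 result was not tested.

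Astrocyte markers averaged lower for 9 of 10 (median -0.23) and microglia markers for 10 of 10 (median -0.56), again with 0 past the adjusted threshold; without WT3 these were 8 of 10 and -0.12 for astrocytes and 8 of 10 and -0.46 for microglia. Every KO library lay below every WT library for 7 of 10 microglia and 3 of 10 astrocyte markers, against 10.1% of all genes tested. A lower KO level with a limma unadjusted p under 0.05 was found for 6 microglia and 2 astrocyte markers, against 7.25% of all genes. The summed level of microglia markers was 137 to 172 FPKM in KO and 195 to 264 FPKM in WT. For astrocyte markers it was 641 to 729 FPKM in KO and 681 to 931 FPKM in WT. Neuron markers had a median of 0.10, or 0.02 with sample weights and 0.18 without WT2, with 7 of 10 higher and 3 lower on average. Every KO library lay above every WT library for 3 neuron markers (11.9% of all genes tested) and below for 1. Their summed level was 1533 to 1756 FPKM in KO and 1266 to 1506 FPKM in WT. By mean deviation the groups overlapped for neuron markers. By mean deviation both glial lists were highest in WT3, whereas the 10 lineage genes were highest in WT1. The part of these cells in the lineage genes' values was not tested.

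**Figure D4:**
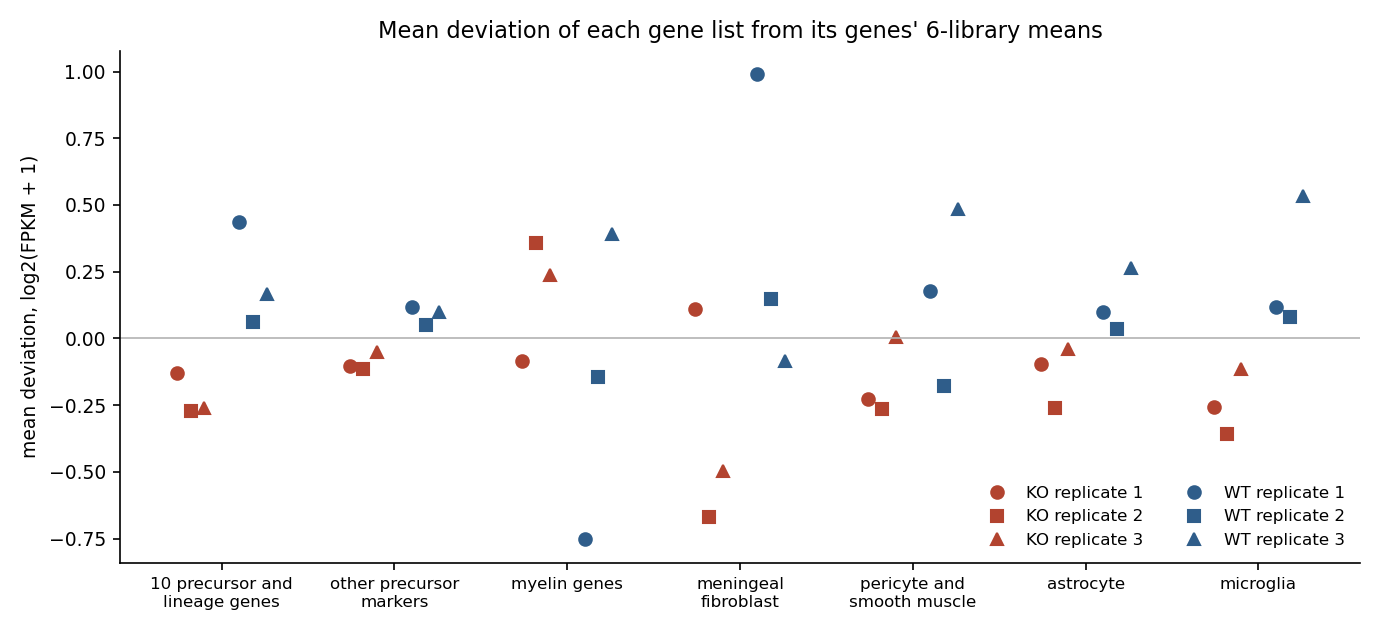
Mean deviation of each gene list from its genes' means over 6 libraries, on log2(FPKM + 1), with KO (red) left of WT (blue) and marker shapes for replicate numbers. The 10 lineage genes are at -0.13, -0.27 and -0.26 in KO and 0.44, 0.06 and 0.17 in WT; WT1 is the highest library for them and for meningeal fibroblast markers and the lowest for myelin genes.

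Averaged over the 10 genes, the deviation from the 6-library mean was -0.13, -0.27 and -0.26 in KO1, KO2 and KO3, against 0.44, 0.06 and 0.17 in WT1, WT2 and WT3. For myelin genes it was -0.09, 0.36 and 0.24 in KO, against -0.75, -0.15 and 0.39 in WT. The groups did not overlap for the lineage genes and overlapped for the myelin genes. The separation was not particular to the lineage genes. By the same measure the groups did not overlap for the other precursor markers, astrocyte markers or microglia markers. They did not overlap for the proteoglycans or the PDGF ligands and receptors either. The proteoglycan list shares Bcan, Vcan and Ptprz1 with the other precursor markers, so these 2 lists are not independent. WT3 was above the mean for both lineage and myelin genes, and WT1 was the library in which lineage and myelin genes diverged most.

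Outside these lists, the protein-coding genes whose profile over the 6 libraries came closest to the mean profile of the 10, among 11805 candidates, were Wscd1, Hgh1, Slc38a10, Adgrg1, Alkbh7 and Mrpl14, at a root mean square difference of 0.0194 to 0.0541 log2 units. Wscd1 was at 14.2, 13.0 and 12.8 FPKM in KO, against 21.1, 16.7 and 17.6 FPKM in WT, and Adgrg1, an adhesion receptor, at 13.8, 12.2 and 12.8 FPKM in KO, against 21.9, 16.0 and 16.0 FPKM in WT. With 6 libraries many genes share such a profile: 18 other protein-coding genes lay closer to Pdgfra than its nearest neighbour among the 10, and 1387 lay closer to Sox10.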

How the data were processed

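The authors deposited FPKM per Ensembl gene, with name, position and length, for 6 libraries. Per the labels' protocols, RNA was prepared with a Qiagen RNeasy mini plus kit and libraries from a SMARTER mRNA kit. GRCm38 and mm10 are named in the submitters' processing notes; the sources used here give no aligner, counter, annotation version or strand setting. Multiplying FPKM by gene length gave whole multiples of 1 step for 100% of values (tolerance 0.01 reads), so reads were recovered for a limma-voom alternative, which used the library sizes implied by the steps, 0.964 to 1.05 times the summed reads. Counting errors cover counting alone.

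KO and WT were compared with limma 3.58.1 in R 4.3.3 on log2(FPKM + 1), with a variance trend, two-sided, over 13087 genes of mean FPKM at least 1. This understates the change of low genes. The step was tested on simulated data. Ratios to Sox10 used exact permutation tests (SciPy 1.17.1). Lists are described by counts and medians, beside all genes. The 10 genes and the 17 other lists were chosen with earlier results of these data known. By symbol, 4 of 5 further Lhfpl genes and all genes of the other lists were in the table.

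Named genes were the 10; Cntnap4; listed genes of smallest p or with a family or ligand tie; and the 6 of most like profile. Neurod6 and Lmo3 come from a list of region markers. Col1a1, Lims2 and Enpp6 were named after their values were seen. Not every gene the rule takes is described, and 1 is not reported here.

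Libraries with the same replicate number deviated together from their group means across genes (correlations of 0.175, 0.145 and 0.330). The numbers were therefore taken as pairs in the alternative with a replicate block. However, KO1 correlated best with WT2 and WT2 with KO1, and only number 3 was the best match in both directions. The pairing of the other numbers is thus uncertain, and the labels do not say what a number marks. Nucleotide and protein sequences are not used here.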

Additional observations from a re-analysis of the deposited data

How the results depend on the processing

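Over 15 alternatives, all 10 log2 fold changes were below 0 and none passed the adjusted threshold; the smallest adjusted p was 0.0884, for C1ql1 with sample weights. Of these alternatives, no filter, the replicate block and no variance trend leave each fold change as it was by construction. The median log2 fold change was -0.53 with a pseudocount of 0.1 and -0.54 with limma-voom on recovered reads, against -0.38. A pseudocount of 1 shrinks low genes by construction. Leaving out 1 library gave medians of -0.47 to -0.33, and -0.44 to -0.07 for the median log2 difference of the ratios to Sox10. The number of genes without overlap was then 6 to 8, but this number cannot fall when a library is left out. The count of genes called across the genome was 0 with no filter, with quantile normalization, with the replicate block, with no variance trend and with the length trend removed, and 0 to 9 with 1 library left out, 9 being without WT3; the cause was not tested. The replicate block changed no other call, and the paired exact test of the ratios cannot go below 0.25. The log2 difference of the ratio to Sox10 turned above 0 without WT1 for Gpr17 (0.25), Matn4 (0.020) and Olig1 (0.071), and without KO2 for Gpr17 (0.027); with 1 library left out it ran from -0.41 to 0.25 for Gpr17, -0.44 to 0.020 for Matn4 and -0.19 to 0.071 for Olig1, and the cause was not tested. C1ql1 and Neu4 rest on the fewest reads, 83 and 85 in their lowest libraries.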
